A study of Mus musculus with 10 samples.

Results

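The 60 ribosome biogenesis factors described here are the genes of the counts table whose symbols are on a fixed list of nucleolar assembly proteins. All 60 were found among the 43346 genes of the table, and all 60 passed the filter on low counts in each of the 3 comparisons. By role, 25 act in assembly of the small ribosomal subunit, 22 act in assembly of the large subunit, 7 are core proteins of the small nucleolar ribonucleoproteins (snoRNPs) that modify ribosomal RNA, and 6 are nucleolar proteins with roles for both subunits.

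The libraries came from O9-1 cells, a mouse cranial neural crest line that is tetraploid. There were 4 wildtype libraries, 3 libraries from clones in which Kat5, the acetyltransferase subunit of the Tip60/Ep400 chromatin complex, was edited with CRISPR/Cas9 (Kat5/1, Kat5/2 and Kat5/3), and 3 libraries from clones in which Ep400, its ATP-dependent remodeling subunit, was edited in the same way (Ep400/1, Ep400/2 and Ep400/3). Each knockout library stands for 1 clone grown from a single sorted cell, so that a property of 1 clone can be seen only by comparing clones. The paper describes transfection, sorting and growth from single cells for the edited clones and not for wildtype. In comparisons with wildtype, effects of these steps and of the edited gene therefore cannot be told apart. All Kat5 clones and Ep400/1 carry frameshifts in every allele, whereas Ep400/2 and Ep400/3 each retain at least 1 allele with a short in-frame deletion in the ATP binding site. The labels call the wildtype libraries biological replicates. No treatment, time course or animal was part of these groups.

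As background, ribosomes are built in the nucleolus. RNA polymerase I makes a long precursor RNA, snoRNPs guide its methylation and pseudouridylation, and a large particle called the small subunit processome folds and cuts its first part, while a second set of factors assembles the large subunit around the rest. Helicases and GTPases drive the steps in order, and late factors accompany both particles to the cytoplasm. Many of these genes are known targets of the transcription factor MYC, and cranial neural crest cells are known to be sensitive to defects in ribosome production.

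Sequencing depth was similar across groups, with 30968945 to 48301792 counts on genes per library, of which mitochondrial genes took 0.893% to 3.24%. Kat5 counts were lower in the Kat5 clones (22.9, 16.4 and 23.2 CPM, counts scaled to library size) than in wildtype (57.5, 48.8, 52.3 and 56.4 CPM), and Ep400 counts were lower in the Ep400 clones (54.7, 61.4 and 59.7 CPM) than in wildtype (159, 157, 157 and 165 CPM). All 11 neural crest and O9-1 markers passed the filter in each comparison. In Kat5 clones 0 of them passed the test, whereas in Ep400 clones 3 rose and 1 fell, with Pdgfra at 105 to 136 CPM in wildtype and 519.8 to 648 CPM in the Ep400 clones. Of the pluripotency and muscle markers, 0 of 5 and 0 of 5 passed the filter. Of the 5 epithelial markers 4 passed it in each comparison with wildtype, and they summed to 5.95 to 16.5 CPM in wildtype, 2.34 to 32.00 CPM in the Kat5 clones (Cldn6 alone 31.3 CPM in Kat5/2) and 0.539 to 0.937 CPM in the Ep400 clones, while Cdh1 stayed at or near 0. Of these, 3 fell in Ep400 clones. Of the 5 neuronal markers 2 passed it in the Ep400 comparison, Tubb3 and Stmn2, and they summed to 2.56 to 5.49 CPM in wildtype, 1.54 to 9.59 CPM in the Kat5 clones and 6.22 to 25.6 CPM in the Ep400 clones, where both rose. Of the 5 blood and immune markers only Cd68 passed, at 2.39 to 7.44 CPM over all libraries. The part of these markers in the results below was not tested.

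All values are listed in the order wildtype 1 to 4, Kat5/1 to Kat5/3 and Ep400/1 to Ep400/3. CPM are scaled by the trimmed mean of M-values (TMM) over the 10 libraries. Log2-fold changes and their standard errors (SE) compare 3 clones with 4 wildtype libraries or with 3 clones, and come from the quasi-likelihood test of edgeR. P-values were adjusted by the method of Benjamini and Hochberg over all genes tested, and rose, fell and changed are used only at an adjusted p of at most 0.05. In wildtype, levels per length of exon differed widely between members. The nucleolar chaperone Npm1 stood highest at 671 CPM per kb, followed by the RNA-binding protein Ncl at 180.3 CPM per kb, while the large subunit factor Nol8 stood lowest at 3.70 CPM per kb. The wildtype libraries were close to each other for these genes, with a median SD of 0.12 on the log2 scale over the 60 members, compared with 0.24 over all 14079 genes above the filter. Among the clones the members instead spread more than other genes. The median SD of the members was 0.49 among the Kat5 clones and 0.54 among the Ep400 clones, compared with 0.36 for all genes in each of these groups. Counts of members outside the wildtype range thus rest on a narrower range than the shares over all genes given beside them.

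The members were high in Kat5/2 and Kat5/3 and low in Ep400/3, and the other clones were nearer to wildtype. Relative to the wildtype mean, the median of the 60 log2 differences was 0.16, 1.06 and 0.92 in the Kat5 clones and 0.028, −0.27 and −0.98 in the Ep400 clones, with 0.00092, 0.076, −0.098 and 0.033 in the wildtype libraries themselves. The 60 genes together took 0.876%, 0.948%, 0.883% and 0.929% of all counts in wildtype, 0.869%, 1.76% and 1.57% in the Kat5 clones and 0.875%, 0.666% and 0.460% in the Ep400 clones. Ep400/3 also had the highest mitochondrial share, 3.24% compared with at most 2.43% in the other libraries, the highest share of counts on the 20 most abundant genes, 10.8% compared with at most 10.04%, and the highest TMM factor, 1.09, while Kat5/2 and Kat5/3 had the lowest TMM factors, 0.928 and 0.940. Their part in the members' levels was not tested. In bulk RNA, fewer cells with high levels and less of these RNAs per cell cannot be told apart. Gene by gene, 29, 57 and 57 of the 60 members were above all wildtype libraries in Kat5/1, Kat5/2 and Kat5/3, and 8, 0 and 1 were below them. In the Ep400 clones 18, 5 and 0 members were above and 14, 36 and 55 were below all wildtype libraries. Over all genes above the filter, 27.8% to 33.6% were above and 27.7% to 34.1% below the wildtype range in a Kat5 clone, and 31.9% to 37.4% were above and 29.5% to 34.3% below it in an Ep400 clone. Kat5/1 was the lowest of the 3 Kat5 clones for 58 members, and for 40.5% of all genes. Ep400/3 was the lowest Ep400 clone for all 60 members, and for 36.6% of all genes, and Ep400/1 was the highest for 52 members.

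**Figure D1:**
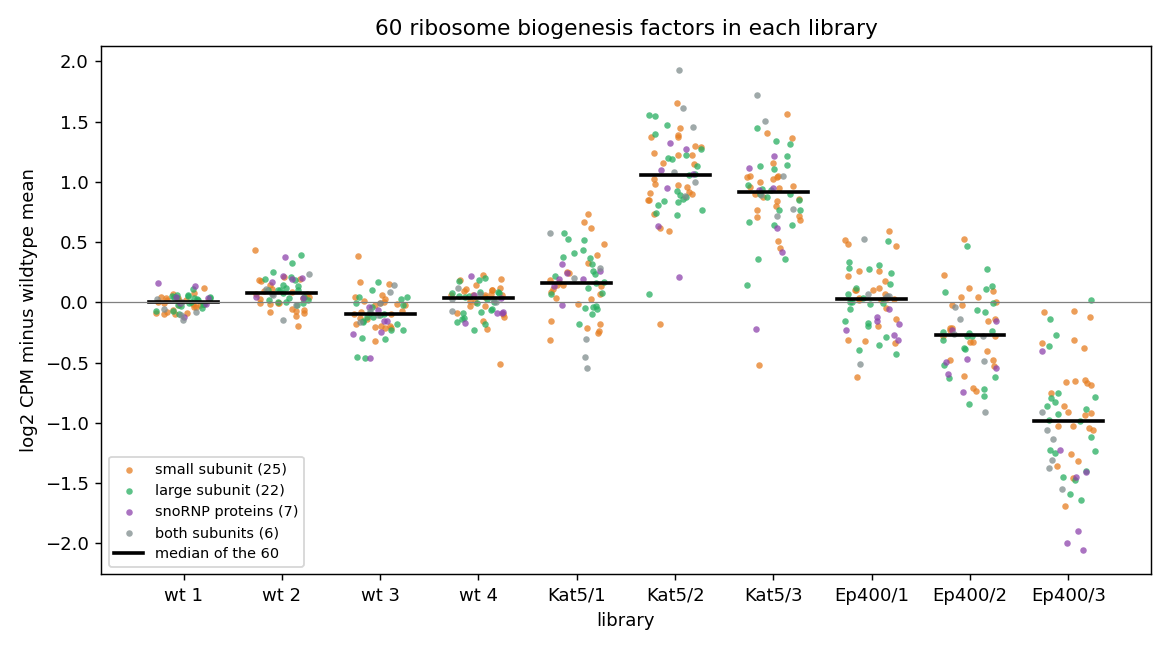
Each point is 1 of the 60 members in 1 library, as the log2 CPM minus the mean of the 4 wildtype libraries (y axis), coloured by assembly role, and the black bars are the medians. The medians were 0.16, 1.06 and 0.92 in Kat5/1, Kat5/2 and Kat5/3 and 0.028, −0.27 and −0.98 in Ep400/1, Ep400/2 and Ep400/3.

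**Figure D2:**
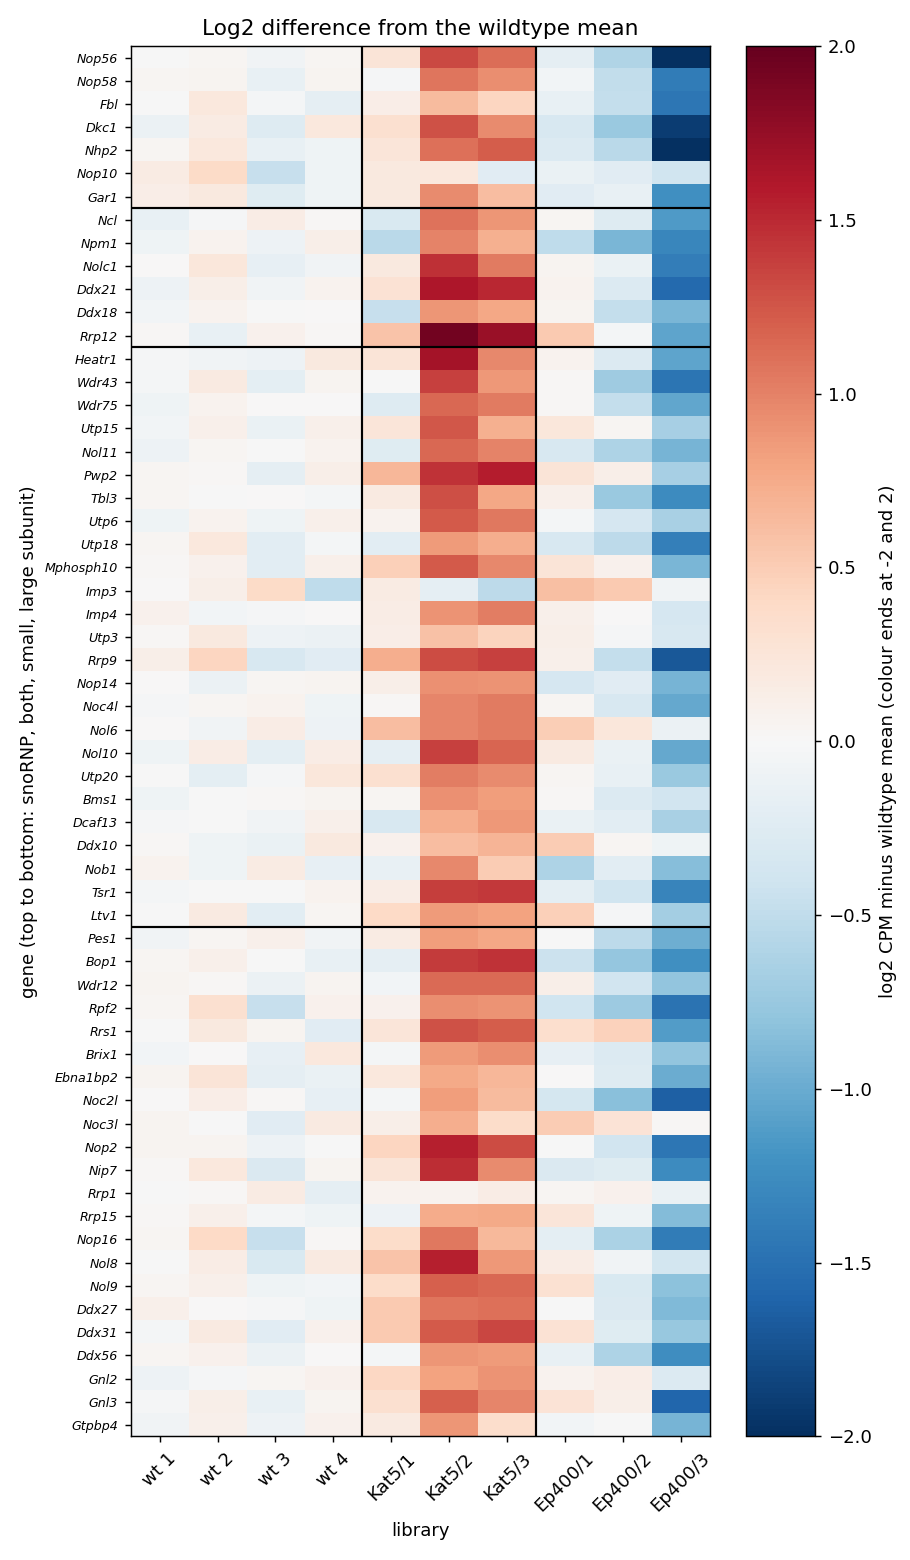
Rows are the 60 members and columns the 10 libraries, and the colour is the log2 CPM minus the wildtype mean, with red above and blue below it. Nearly all rows are red in Kat5/2 and Kat5/3 and blue in Ep400/3, while Imp3, Nop10, Rrp1 and Noc3l stand out as pale or differently coloured rows.

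The first question was how loss of Kat5 affects these genes. The median log2-fold change of the 60 members in Kat5 clones against wildtype was 0.72, compared with 3.2e-05 over all 13434 genes tested, and 59 of the 60 estimates were above zero. Only Nol6 and Pwp2, both small subunit processome proteins, rose past an adjusted p of 0.05, beside 0.179% of all genes that rose and 0.447% that fell. At an unadjusted p of at most 0.05, 50 members were higher and 0 were lower, compared with 10.7% and 11.6% of all genes. All 3 Kat5 clones were above all wildtype libraries for 29 members and below them for 0, compared with 9.67% and 10.2% of all genes. As over all genes, the count of members past the threshold changed with the library left out. Without Kat5/1 it was 56, all higher, beside 9.83% of all genes higher, and 57 members lay above the wildtype range, compared with 23.5% of all genes. Without any one of Kat5/2, Kat5/3 or the 4 wildtype libraries it was 0, beside 0% to 0.116% of all genes higher. With DESeq2 it was 29, beside 3.77% of all genes higher.

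The second question was how loss of Ep400 affects them. The median log2-fold change of the members in Ep400 clones against wildtype was −0.37, compared with 0.043 over all 13836 genes tested, and 55 of the 60 estimates were below zero. Npm1, Bop1 and Nol11 fell past an adjusted p of 0.05 and 0 members rose, whereas 5.72% of all genes fell and 8% rose. At an unadjusted p of at most 0.05, 12 members were lower and 0 higher, compared with 14.2% and 18% of all genes. All 3 Ep400 clones were below all wildtype libraries for 14 members and above them for 0, compared with 14.1% and 16.1% of all genes, and the 3 of 60 members that fell were near the share of all genes. Without Ep400/1, 12 members passed the threshold as lower, beside 6.13% of all genes, and 36 lay below the wildtype range, compared with 20.6% of all genes. Without Ep400/3 the median of the members was −0.14 and 2 members passed, beside 5.55% of all genes lower. There the estimates of 11 of the 44 members selected by the rule given under processing turned above zero. Without Ep400/2 the median was −0.43 and 1 member passed, beside 3.86% of all genes lower. Without wildtype 1, 2 or 4 the count was 0, beside 2.32% to 2.83% of all genes lower. Without wildtype 3 it was 1, beside 4.88% of all genes lower. Both comparisons share the 4 wildtype libraries.

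The knockouts were also compared directly, which does not use the wildtype libraries. The median log2-fold change of the members in Ep400 against Kat5 clones was −1.16, compared with 0.0063 over all 13587 genes tested, and 59 of the 60 estimates were below zero. Ddx27, Rpf2 and Nop16, all factors of the large subunit, were lower past an adjusted p of 0.05, and 0 members were higher, beside 2.83% of all genes lower and 4.22% higher. The small subunit factors were similarly low, with a median of −1.14 over 25 genes, compared with −1.15 over 22 genes of the large subunit. Their smallest adjusted p was 0.0516, just past the threshold, compared with 0.0433. At an unadjusted p of at most 0.05, 51 members were lower and 0 higher, compared with 16% and 16.3% of all genes. The Ep400 clones were all below the Kat5 clones for 43 members and all above for 0, compared with 18% and 20.5% of all genes. Without Kat5/1, 42 members passed the threshold, beside 8.68% of all genes lower. Without any one other clone the count was 0, beside 0% to 0.639% of all genes lower. With DESeq2, 42 members passed, beside 7.67% of all genes lower.

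Nol6 (chr4:41114427-41124455 on GRCm38, minus strand), which works at an early step of the small subunit processome, had 58.8, 55.4, 64.8 and 54.5 CPM in wildtype, 89.3, 115 and 120.3 CPM in the Kat5 clones and 81.5, 68.1 and 53.5 CPM in the Ep400 clones. All Kat5 clones were above wildtype, Ep400/1 and Ep400/2 were also above it and Ep400/3 was just below. The log2-fold change was 0.86 ± 0.14 (SE) in Kat5 clones, adjusted p 0.0493, and 0.21 ± 0.16 in Ep400 clones, adjusted p 0.393. Pwp2 (chr10:78170909-78185149, minus strand), a WD-repeat protein of the UTP-B complex, had 44.003, 43.5, 37.7 and 46.4 CPM in wildtype, 67.96, 116 and 127 CPM in the Kat5 clones and 51.3, 46.3 and 27.1 CPM in the Ep400 clones. The Kat5 clones did not overlap wildtype, and the Ep400 clones lay above, within and below its range. Its log2-fold change was 1.24 ± 0.21 in Kat5 clones, adjusted p 0.0493, and −0.046 ± 0.22 in Ep400 clones, adjusted p 0.902. On the CPM scale the mean of the Kat5 clones was 1.85 times the wildtype mean for Nol6 and 2.42 times for Pwp2. Without Kat5/1 the adjusted p was 0.00471 for Nol6 and 0.00286 for Pwp2, and without any one other library it was 0.0747 to 0.188 and 0.0764 to 0.181, so that neither call held there.

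Npm1 (chr11:33152287-33163206, minus strand), nucleophosmin, had 1687, 1874, 1656 and 1933 CPM in wildtype, 1221, 3556 and 2933 CPM in the Kat5 clones and 1249, 950.2 and 721 CPM in the Ep400 clones. All Ep400 clones were below wildtype, but Kat5/1 was below it as well, at the level of Ep400/1, while Kat5/2 and Kat5/3 were far above. The log2-fold change was −0.88 ± 0.21 in Ep400 clones, adjusted p 0.0274, and 0.49 ± 0.31 in Kat5 clones, adjusted p 0.375. Npm1 has processed copies in the mouse genome with which reads can be shared, so its level is less certain than that of single-copy genes. Bop1 (chr15:76452989-76477277, minus strand), a scaffold of the PeBoW complex of the large subunit, had 133, 139, 129 and 117 CPM in wildtype, 114, 342 and 353 CPM in the Kat5 clones and 96.1, 75.4 and 55.3 CPM in the Ep400 clones. Its Ep400 clones were all below wildtype, and Kat5/1 was just below wildtype while Kat5/2 and Kat5/3 were far above it. The log2-fold change was −0.78 ± 0.19 in Ep400 clones, adjusted p 0.0308, and 1.02 ± 0.33 in Kat5 clones, adjusted p 0.137. Nol11 (chr11:107166663-107189381, minus strand), a UTP-A protein that links transcription of the precursor RNA to its processing, had 69.4, 76.4, 74.1 and 77.998 CPM in wildtype, 63.1, 166 and 149 CPM in the Kat5 clones and 59.6, 48.6 and 39.2 CPM in the Ep400 clones. As for Npm1 and Bop1, Kat5/1 and all Ep400 clones were below wildtype, and Kat5/2 and Kat5/3 were above it. The log2-fold change of Nol11 was −0.60 ± 0.16 in Ep400 clones, adjusted p 0.0410, and 0.72 ± 0.28 in Kat5 clones, adjusted p 0.186. Each of these 3 calls was lost in most of the fits without 1 library, while the log2-fold changes stayed below zero. Over these fits they were −1.10 to −0.71 for Npm1, −0.99 to −0.60 for Bop1 and −0.77 to −0.47 for Nol11. The adjusted p was 0.0669 to 0.0788 for Npm1 without wildtype 1, 2 or 4 or without Ep400/2, 0.0529 to 0.084 for Bop1 without any one wildtype library or Ep400/2, and 0.0657 to 0.101 for Nol11 without any one library other than Ep400/1. Npm1 and Nol11 are on chromosome 11, where the median over 1141 genes was −0.17, −0.19 and −0.20 on the log2 scale in the Ep400 clones relative to wildtype. With chromosome medians as offsets the log2-fold changes were −0.70 for Npm1, adjusted p 0.0596, and −0.42 for Nol11, adjusted p 0.107, and Bop1 on chromosome 15 kept an adjusted p of 0.0497.

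Ddx27 (chr2:167015193-167034947, plus strand), an RNA helicase needed for processing of the large subunit RNA, had 90.3, 83.8, 82.4 and 78.9 CPM in wildtype, 119.8, 175 and 181 CPM in the Kat5 clones and 83.7, 68.9 and 45.3 CPM in the Ep400 clones. The Kat5 clones were all above wildtype, and Ep400/2 and Ep400/3 were below it. The log2-fold change of Ep400 against Kat5 clones was −1.28 ± 0.28, adjusted p 0.0433. Rpf2 (chr10:40223246-40247036, minus strand), which with Rrs1 brings the 5S RNA particle to the large subunit, had 47.96, 58.6, 34.1 and 49.6 CPM in wildtype, 49.4, 88.9 and 87.3 CPM in the Kat5 clones and 35.4, 28.3 and 16.8 CPM in the Ep400 clones. Kat5/1 and Ep400/1 lay within the wildtype range and the other clones outside it, on opposite sides. Its log2-fold change of Ep400 against Kat5 clones was −1.502 ± 0.34, adjusted p 0.0466. Nop16 (chr13:54584185-54590090, minus strand), another large subunit factor, had 60.5, 77.4, 42.8 and 59.97 CPM in wildtype, 76.2, 122 and 91.9 CPM in the Kat5 clones and 51.3, 38.03 and 22.3 CPM in the Ep400 clones, with a log2-fold change between the knockouts of −1.40 ± 0.33, adjusted p 0.04996. For each of these 3 genes the Ep400 clones were all below the Kat5 clones. The calls were near the threshold, and each of them was lost in the fit without any one clone other than Kat5/1, where the adjusted p was 0.0526 to 0.153.

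**Figure D3:**
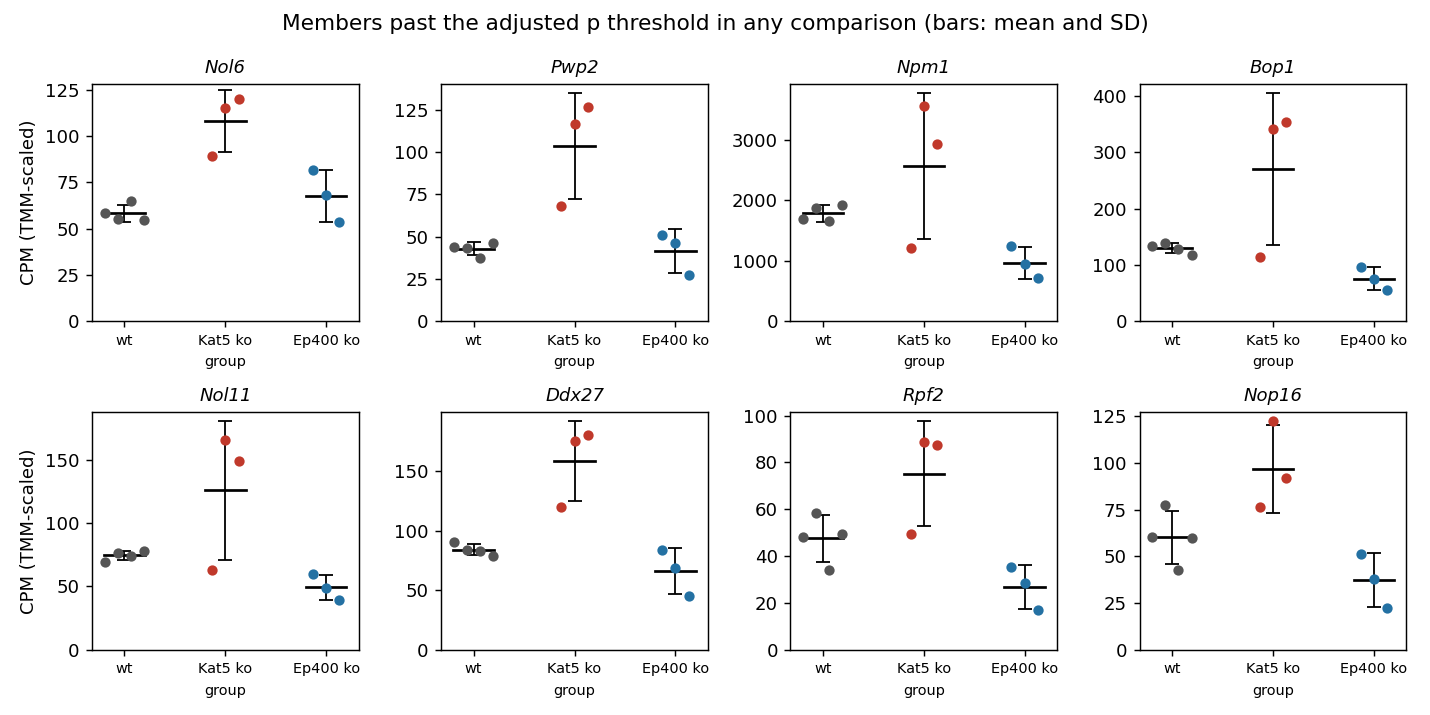
Panels show the 8 members with an adjusted p of at most 0.05 in any of the 3 comparisons, with 1 point per library, TMM-scaled CPM on the y axis from 0, and the mean and SD of each group in black. Kat5/1 is the lowest Kat5 point in each panel, within or below the wildtype points for Npm1, Bop1, Nol11, Rpf2 and Nop16, and Ep400/3 is the lowest Ep400 point.

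The snoRNP proteins guide chemical modification of ribosomal RNA. In the box C/D particle, the scaffold Nop56 had 259, 268, 249.8 and 268 CPM in wildtype, 313, 654 and 565 CPM in the Kat5 clones and 230.2, 173 and 62.7 CPM in the Ep400 clones. Kat5 clones were all above and Ep400 clones all below wildtype, with log2-fold changes of 0.93 ± 0.23 and −0.75 ± 0.36 and adjusted p of 0.0809 and 0.192. Fibrillarin (Fbl), the methyltransferase of the particle, had 117, 137, 114 and 104 CPM in wildtype, 129, 182 and 158 CPM in the Kat5 clones and 106, 84.7 and 43.01 CPM in the Ep400 clones, and Kat5/1 and Ep400/1 were within the wildtype range. In the box H/ACA particle, the pseudouridine synthase Dkc1 had 140.4, 172, 127 and 178 CPM in wildtype, 191, 369.6 and 295 CPM in the Kat5 clones and 123, 91.1 and 40.9 CPM in the Ep400 clones. Its core partner Nhp2 had 72.2, 81.3, 63.4 and 66.3 CPM in wildtype, 83.6, 151 and 164 CPM in the Kat5 clones and 58.4, 48.3 and 17.6 CPM in the Ep400 clones. For both, the 3 clones of each knockout lay outside the wildtype range, above it in Kat5 and below it in Ep400. Gar1, another core protein, had 42.7, 44.4, 32.7 and 36.6 CPM in wildtype, 44.4, 74.8 and 59.6 CPM in the Kat5 clones and 33.2, 34.9 and 16.6 CPM in the Ep400 clones, and Kat5/1 was only just above and Ep400/3 alone below wildtype. Nop10, the smallest core protein, was within the wildtype range of 30.01 to 53.7 CPM in all clones, with 47.2, 47.8 and 35.4 CPM in the Kat5 clones and 37.9, 35.2 and 31.2 CPM in the Ep400 clones. Over the 7 snoRNP proteins the log2-fold changes ran from 0.011 to 0.93 in Kat5 clones and from −0.86 to −0.28 in Ep400 clones, and 0 passed the threshold in either comparison. Ep400/3 held the lowest values, with a mean log2 difference from wildtype of −1.49 over the 7 genes, compared with −0.98 over all 60.

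The 6 nucleolar proteins with roles for both subunits include the most abundant members. Nucleolin (Ncl) had 1658, 1803, 2021 and 1867 CPM in wildtype, 1480.0, 3886 and 3393 CPM in the Kat5 clones and 1880.3, 1529 and 835 CPM in the Ep400 clones. Kat5/1 was below all wildtype libraries and Kat5/2 and Kat5/3 were above them. Ddx21, a helicase of rRNA transcription and processing, had 266, 309, 271 and 299 CPM in wildtype, 349, 877 and 810.5 CPM in the Kat5 clones and 301, 236 and 97.4 CPM in the Ep400 clones, and the log2-fold change was 1.21 ± 0.28 in Kat5 clones, adjusted p 0.0748. Rrp12, which takes part in export of both subunit precursors, had 48.03, 42.4, 50.1 and 48.04 CPM in wildtype, 70.2, 179 and 155 CPM in the Kat5 clones and 67.6, 45.7 and 22.6 CPM in the Ep400 clones. It showed the highest log2-fold change among the 60 members in Kat5 clones, 1.48 ± 0.28 with an adjusted p of 0.0595, while Ep400/1 was above, Ep400/2 within and Ep400/3 below the wildtype range. Nolc1, a chaperone of snoRNPs, and Ddx18, a helicase, had log2-fold changes of 0.95 and 0.48 in Kat5 clones and of −0.37 and −0.40 in Ep400 clones. In this group Kat5/1 was below wildtype for Ncl, Npm1 and Ddx18 and above it for Ddx21 and Rrp12. The range was 0.48 to 1.48 in Kat5 clones, with 0 of 6 past the threshold, and −0.88 to −0.058 in Ep400 clones, with Npm1 past it.

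The small subunit processome forms on the precursor RNA by addition of complexes. Of the UTP-A complex, which binds first, the long scaffold protein Heatr1 had 78.5, 76.4, 74.5 and 91.1 CPM in wildtype, 95.3, 252 and 155 CPM in the Kat5 clones and 83.7, 65.96 and 38.4 CPM in the Ep400 clones. Utp15, a WD-repeat subunit, had 49.4, 55.05, 46.8 and 55.3 CPM in wildtype, 60.8, 121 and 84.2 CPM in the Kat5 clones and 60.1, 53.1 and 32.4 CPM in the Ep400 clones. For both, the Kat5 clones were all above wildtype and Ep400/3 was below it, whereas Ep400/1 was above it for Utp15 only. The further WD-repeat subunits Wdr43 and Wdr75 had log2-fold changes of 0.81 and 0.73 in Kat5 clones and of −0.60 and −0.44 in Ep400 clones. Of the UTP-B complex, the WD-repeat protein Tbl3 had 78.4, 76.3, 76.6 and 74.7 CPM in wildtype, 86.8, 187 and 130.3 CPM in the Kat5 clones and 82.02, 45.8 and 31.9 CPM in the Ep400 clones. Utp18, another WD-repeat subunit, had 62.1, 69.9, 52.2 and 59.2 CPM in wildtype, 52.3, 109 and 99.7 CPM in the Kat5 clones and 48.6, 41.96 and 23.5 CPM in the Ep400 clones. Tbl3 was above wildtype in Ep400/1 by a small margin and below it in the other Ep400 clones, and Utp18 was below wildtype in all Ep400 clones. Utp6, which is also a subunit, had log2-fold changes of 0.83 in Kat5 and −0.32 in Ep400 clones. The 5 UTP-A genes had medians of 0.75 in Kat5 and −0.44 in Ep400 clones, and the 4 UTP-B genes had medians of 0.80 and −0.42.

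The MPP10 complex is part of the processome, as is the U3 snoRNP. The MPP10 subunit Mphosph10 had 41.4, 43.4, 35.1 and 43.98 CPM in wildtype, 57.02, 95.6 and 79.6 CPM in the Kat5 clones and 48.9, 43.5 and 21.7 CPM in the Ep400 clones. Imp4, its RNA-binding partner, had 63.1, 57.3, 58.6 and 59.8 CPM in wildtype, 65.8, 111 and 121 CPM in the Kat5 clones and 64.1, 59.9 and 47.2 CPM in the Ep400 clones. In both, all Kat5 clones were above wildtype, and Ep400/1 was above, Ep400/2 within and Ep400/3 below it. Imp3, the other subunit, went a different way from its partners and had 42.8, 46.005, 55.7 and 29.9 CPM in wildtype, 47.8, 37.6 and 29.6 CPM in the Kat5 clones and 64.4, 61.2 and 40.6 CPM in the Ep400 clones. Its wildtype libraries themselves spread widely, Kat5/3 was just below them and Ep400/1 and Ep400/2 were above them, with log2-fold changes of −0.21 ± 0.24 in Kat5 clones, adjusted p 0.638, and 0.34 ± 0.24 in Ep400 clones, adjusted p 0.345. These were the lowest value among the 60 members in the Kat5 comparison and the highest in the Ep400 comparison, and neither passed the test. Rrp9, a protein of the U3 snoRNP itself, had 44.7, 55.7, 32.9 and 35.3 CPM in wildtype, 68.6, 102 and 106 CPM in the Kat5 clones and 44.4, 29.7 and 12.7 CPM in the Ep400 clones, with a log2-fold change of 1.10 ± 0.23 in Kat5 clones, adjusted p 0.0683. Utp3, another processome protein, had log2-fold changes of 0.37 in Kat5 and −0.069 in Ep400 clones.

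Among the other processome proteins, Nop14, which binds to Noc4l, had 89.95, 83.1, 92.6 and 93.3 CPM in wildtype, 97.003, 169 and 167 CPM in the Kat5 clones and 70.997, 76.3 and 46.9 CPM in the Ep400 clones. Utp20, a very long protein of the particle, had 162, 142, 160.2 and 190.4 CPM in wildtype, 204, 330.1 and 314 CPM in the Kat5 clones and 166, 146 and 96.8 CPM in the Ep400 clones. Kat5 clones were above wildtype for both, all Ep400 clones were below it for Nop14, and only Ep400/3 was below it for Utp20. Dcaf13, a WD-repeat protein, had 62.9, 63.7, 60.7 and 68.4 CPM in wildtype, 51.3, 106 and 117 CPM in the Kat5 clones and 58.2, 55.2 and 40.5 CPM in the Ep400 clones, with Kat5/1 and all Ep400 clones below wildtype. The range over the 8 genes of this group, which also holds Nol6, Noc4l, Nol10, the GTPase Bms1 and the helicase Ddx10, was 0.45 to 0.89 in Kat5 and −0.47 to 0.21 in Ep400 clones. Late factors act on the small subunit precursor at and after export. Nob1, the nuclease that makes the final cut of its RNA, had 74.3, 67.2, 79.8 and 63.6 CPM in wildtype, 63.8, 138 and 101 CPM in the Kat5 clones and 46.2, 61.2 and 39.1 CPM in the Ep400 clones. Tsr1, a GTPase-like protein of the late particle, had 91.3, 93.1, 92.996 and 98.03 CPM in wildtype, 104, 246 and 248.99 CPM in the Kat5 clones and 81.9, 70.96 and 37.5 CPM in the Ep400 clones. Ltv1, which leaves the particle before it matures, had 39.8, 45.4, 34.8 and 41.5 CPM in wildtype, 52.8, 72.3 and 70.2 CPM in the Kat5 clones and 55.8, 39.6 and 24.9 CPM in the Ep400 clones. Ep400 clones were all below wildtype for Nob1 and Tsr1, while for Ltv1 Ep400/1 was above, Ep400/2 within and Ep400/3 below it. In Ep400 clones the log2-fold changes were −0.55 ± 0.18 for Nob1, adjusted p 0.0745, −0.57 ± 0.24 for Tsr1, adjusted p 0.144, and −0.011 ± 0.25 for Ltv1, adjusted p 0.980.

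The PeBoW complex of Pes1, Bop1 and Wdr12 is needed for cutting of the large subunit RNA. Pes1 had 153, 165, 173 and 154 CPM in wildtype, 180.0, 289 and 274 CPM in the Kat5 clones and 159, 112 and 81.6 CPM in the Ep400 clones, and Kat5 clones were all above wildtype, whereas Ep400/2 and Ep400/3 were below it and Ep400/1 was within its range. Kat5/1 was thus above wildtype for Pes1 and below it for Bop1, its partner in the complex. Wdr12 had log2-fold changes of 0.80 in Kat5 and −0.30 in Ep400 clones. Rrs1, the partner of Rpf2, had 60.2, 69.1, 62.5 and 51.5 CPM in wildtype, 71.2, 146 and 140.2 CPM in the Kat5 clones and 76.3, 83.6 and 27.8 CPM in the Ep400 clones. It was above wildtype in all Kat5 clones and in Ep400/1 and Ep400/2, and below wildtype in Ep400/3, with a log2-fold change of 0.041 ± 0.33 in Ep400 clones, adjusted p 0.945, compared with −0.83 ± 0.28 for Rpf2, adjusted p 0.0798.

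The early and middle particles of the large subunit form in the nucleolus and nucleoplasm, and Ep400/3 was the lowest Ep400 clone for each of their factors. Nop2, a methyltransferase of the large subunit RNA, had 128, 127, 115 and 122 CPM in wildtype, 166, 359 and 304 CPM in the Kat5 clones and 122, 93.9 and 44.9 CPM in the Ep400 clones, with a log2-fold change of 1.14 ± 0.23 in Kat5 clones, adjusted p 0.0683. Nip7, which binds precursor RNA, had 54.8, 62.04, 43.8 and 55.7 CPM in wildtype, 64.2, 149 and 103 CPM in the Kat5 clones and 43.95, 45.4 and 22.5 CPM in the Ep400 clones. Nol8 had 32.9, 36.7, 26.9 and 37.5 CPM in wildtype, 49.5, 97.5 and 60.8 CPM in the Kat5 clones and 36.9, 31.8 and 25.8 CPM in the Ep400 clones. For these 3 genes all Kat5 clones were above wildtype and Ep400/3 was below it. Nol9, an RNA kinase, had 66.9, 69.8, 61.1 and 62.4 CPM in wildtype, 84.2, 149 and 143 CPM in the Kat5 clones and 80.3, 52.4 and 36.7 CPM in the Ep400 clones, with Ep400/1 above and the other Ep400 clones below wildtype. Noc2l had 203, 223, 207 and 182 CPM in wildtype, 197, 361 and 316 CPM in the Kat5 clones and 159, 113 and 65.1 CPM in the Ep400 clones. Brix1, a member of the same protein family as Rpf2 and Imp4, had 82.96, 85.9, 76.7 and 98.8 CPM in wildtype, 83.7, 155 and 163 CPM in the Kat5 clones and 76.1, 70.7 and 49.8 CPM in the Ep400 clones. Both were below wildtype in all Ep400 clones, and Kat5/1 was within the wildtype range, with log2-fold changes in Ep400 clones of −0.86 ± 0.27 for Noc2l, adjusted p 0.0677, and −0.39 ± 0.17 for Brix1, adjusted p 0.158. Noc3l, which works together with Noc2l, had 48.1, 46.4, 39.7 and 52.8 CPM in wildtype, 50.4, 76.7 and 59.8 CPM in the Kat5 clones and 66.1, 56.4 and 47.2 CPM in the Ep400 clones. Here Ep400/1 and Ep400/2 were above wildtype and Ep400/3 was within its range, and the log2-fold change was 0.27 ± 0.16, adjusted p 0.273. Rrp1, a factor of the large subunit RNA, had 230.0, 235, 261 and 205 CPM in wildtype, 243, 244 and 256 CPM in the Kat5 clones and 238, 246 and 211 CPM in the Ep400 clones, so that every clone lay within the wildtype range. Ebna1bp2 and Rrp15 had log2-fold changes of 0.53 and 0.49 in Kat5 clones and of −0.37 and −0.16 in Ep400 clones.

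The helicases and GTPases of the large subunit drive its maturation. The helicase Ddx31 had 16.4, 19.01, 14.2 and 17.8 CPM in wildtype, 24.1, 39.1 and 42.6 CPM in the Kat5 clones and 20.4, 14.1 and 9.93 CPM in the Ep400 clones. The helicase Ddx56 had 83.9, 86.5, 75.3 and 82.1 CPM in wildtype, 79.6, 150.4 and 147 CPM in the Kat5 clones and 73.4, 53.2 and 34.7 CPM in the Ep400 clones. Ep400/1 was above wildtype for Ddx31 and below it for Ddx56, and Ep400/2 and Ep400/3 were below wildtype for both. Nucleostemin (Gnl3) had 126, 139, 115 and 132 CPM in wildtype, 159.7, 292 and 251 CPM in the Kat5 clones and 155, 138 and 42.5 CPM in the Ep400 clones. The related GTPase Gnl2 had 56.7, 59.9, 62.5 and 64.2 CPM in wildtype, 80.6, 106 and 114 CPM in the Kat5 clones and 63.8, 66.7 and 50.4 CPM in the Ep400 clones. Gtpbp4, another GTPase, had 107, 121, 105 and 119 CPM in wildtype, 127, 209 and 144 CPM in the Kat5 clones and 108, 112 and 59.4 CPM in the Ep400 clones. All Kat5 clones were above wildtype for the 3 GTPases, and Ep400/3 was the only Ep400 clone below it. Their log2-fold changes were 0.47 to 0.84 in Kat5 and −0.28 to −0.014 in Ep400 clones, and 0 of them passed the threshold.

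Small and large subunit factors were compared to ask whether either arm moved more. In Kat5 clones the 25 small subunit genes had a median log2-fold change of 0.73 and the 22 large subunit genes 0.67. Of these, 12 and 11 lay above the wildtype range in all Kat5 clones, compared with 9.67% of all genes. In Ep400 clones the medians were −0.32 and −0.33. Of the small and large subunit genes, 6 and 4 lay below the wildtype range in all Ep400 clones, compared with 14.1% of all genes. The differences between the medians, 0.064 and 0.00701 on the log2 scale, were smaller than the range of the genes within either arm. Both changed sign without wildtype 2, where they were −0.035 and −0.033. The Kat5 difference was also below zero without Kat5/2 (−0.017) or Kat5/3 (−0.0046). The Ep400 difference was below zero without wildtype 1 (−0.019) or Ep400/3 (−0.0013) as well. Library by library, the mean over small subunit genes minus the mean over large subunit genes was −0.068 to 0.067 in wildtype, −0.061 to 0.017 in the Kat5 clones and 0.054, 0.049 and 0.14 in the Ep400 clones. The value of Ep400/3 was outside the wildtype range. No p is given, since genes are not replicates.

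**Figure D4:**
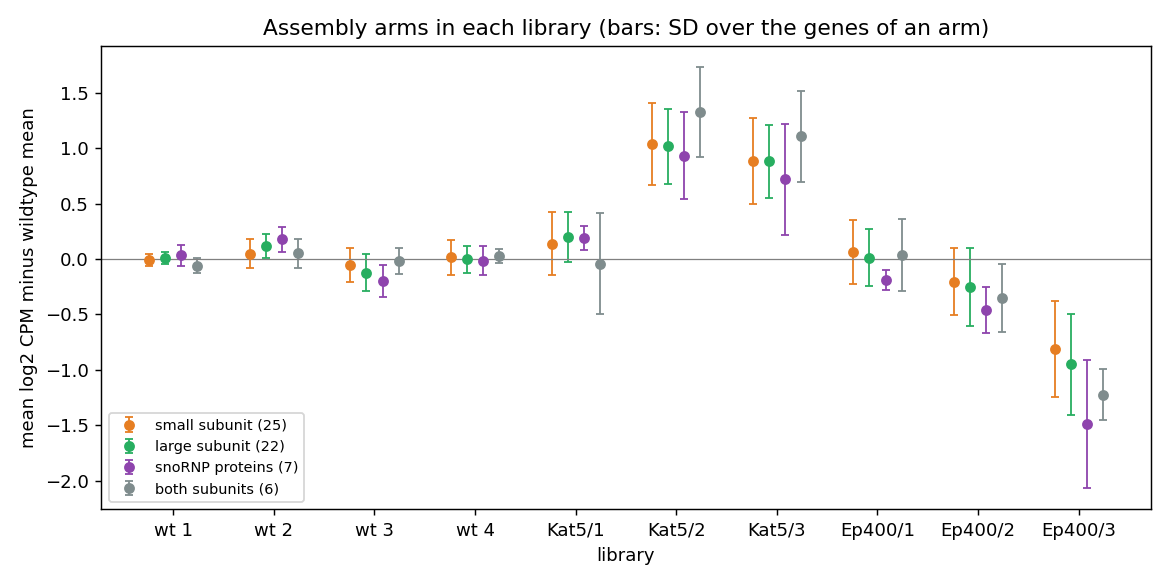
For each library, points are the mean log2 CPM minus the wildtype mean over the genes of an assembly role, and bars are the SD over these genes. Small and large subunit means differ by at most 0.14 in any library, while the 7 snoRNP proteins have the lowest mean in Ep400/3, −1.49.

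The members did not all follow their clone. Imp3, Nop10 and Rrp1 were not above wildtype in Kat5/2 and Kat5/3, unlike the other 57. In Ep400/3, Imp3, Nop10, Rrp1, Noc3l and Ddx10 were not below wildtype, unlike the other 55. Overlap with other transcripts can affect single values. Exons of 20 members overlap exons of another gene in the annotation, in 13 cases a protein-coding gene, among them Bop1 with Mroh1, Dkc1 with Mpp1 and Nop56 with Idh3b on the opposite strand, and the strand setting of the counting is not known. Ncl, Nop56, Nop58 and Gnl3 also host snoRNA genes.

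What the members share in sequence was described in their promoters, since most of them were high or low together in the same clones. RefSeq windows from 250 bases before to 50 bases after the annotated start (GRCm38.p6) matched 50 of the 60 members by symbol, in 55 windows. The letters CACGTG, the E-box that MYC and its partner MAX can bind and which read the same on both strands, were in a window of 10 members (20%), of 8.09% of all 27025 genes with a window and of 11.8% of the 9481 of them that were tested in the Kat5 comparison. The letters TTCCGG, on either strand, are part of the site of ETS factors. They were in a window of 27 members (54%), of 16.7% of all genes and of 31.9% of the tested genes. Both motifs were in the same window for 5 members (10%), 1.57% of all genes and 3.28% of the tested genes. A match is a description of letters and not of binding. In 5 members CACGTG lay in the 130 bases before the start, and 2 of these stretches, of Rpf2 and Utp18, overlap exons of protein-coding transcripts and are not shown. The other 3 are given 5′ to 3′ on the strand of the gene, to show where the motifs lie in the promoter of Nol11, which fell in Ep400 clones, and of Nop2 and Imp4. Capitals mark CACGTG, and TTCCGG or its reverse complement CCGGAA.
Nol11 (chr11:107189382-107189511, minus strand): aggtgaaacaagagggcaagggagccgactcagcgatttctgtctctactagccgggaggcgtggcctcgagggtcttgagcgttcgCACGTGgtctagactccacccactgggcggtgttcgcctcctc
Nop2 (chr6:125131753-125131882, plus strand): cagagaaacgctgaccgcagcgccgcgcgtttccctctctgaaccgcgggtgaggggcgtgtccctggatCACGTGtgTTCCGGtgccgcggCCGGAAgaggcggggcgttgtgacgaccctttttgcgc
Imp4 (chr1:34439699-34439828, plus strand): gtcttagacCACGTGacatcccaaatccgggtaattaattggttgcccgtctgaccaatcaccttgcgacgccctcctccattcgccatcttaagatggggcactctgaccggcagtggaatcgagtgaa
CACGTG began 43 bases before the start in Nol11, 60 in Nop2 and 121 in Imp4. These 3 genes did not share a single pattern. All Ep400 clones were below wildtype for Nol11, whereas Ep400/1 was within its range for Nop2 and above it for Imp4.

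Other genes of the pathway were set beside the members. A separate list of 78 further ribosome biogenesis genes had a median log2-fold change of 0.55 in Kat5 clones, with 74 above zero and 1, Surf6, past the threshold as higher. In Ep400 clones its median was −0.26, with 67 below zero and 4 past the threshold as lower. Surf6, a nucleolar protein, had 22.7, 24.4, 19.7 and 20.4 CPM in wildtype, 37.01, 40.8 and 44.2 CPM in the Kat5 clones and 27.04, 31.1 and 21.9 CPM in the Ep400 clones, and its log2-fold change in Kat5 clones was 0.87 ± 0.14, adjusted p 0.0482. The 15 genes of RNA polymerase I transcription had medians of 0.71 and −0.30, with 0 past the threshold in Kat5 clones and 1 lower in Ep400 clones. That gene was Polr1c, a subunit shared with RNA polymerase III, with 87.8, 81.9, 91.5 and 84.9999 CPM in wildtype, 67.98, 104 and 87.1 CPM in the Kat5 clones and 59.3, 41.3 and 48.5 CPM in the Ep400 clones, so that the Ep400 clones were all below wildtype and the Kat5 clones lay on both sides. Its log2-fold change in Ep400 clones was −0.80 ± 0.15, adjusted p 0.0131. Polr1b, the second largest subunit of RNA polymerase I, had 44.99, 51.8, 40.8 and 49.99 CPM in wildtype, 68.6, 135 and 125 CPM in the Kat5 clones and 39.2, 29.9 and 19.2 CPM in the Ep400 clones, with log2-fold changes of 1.19 ± 0.23, adjusted p 0.0619, and −0.67 ± 0.23, adjusted p 0.0896.

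The ribosomal proteins, the products that these factors assemble, did not share their high levels in Kat5/2 and Kat5/3. In Kat5 clones the 32 small subunit and 47 large subunit proteins had medians of −0.13 and −0.13, with 27 and 35 below zero and 0 past the threshold. In Ep400 clones all 79 were below zero, with medians of −0.38 and −0.44, and 1 and 8 of them fell past the threshold. Rpl13a had 1423, 1440.0, 1126 and 1242 CPM in wildtype, 1247, 1172 and 1188 CPM in the Kat5 clones and 807, 766 and 562 CPM in the Ep400 clones, with a log2-fold change in Ep400 clones of −0.88 ± 0.19, adjusted p 0.0188. Many ribosomal protein genes have processed copies that can share reads. Library by library, the mean log2 difference of the large subunit proteins was −0.044, −0.011 and −0.13 in the Kat5 clones and −0.35, −0.24 and −0.71 in the Ep400 clones, and that of the small subunit proteins was 0.017, −0.092 and −0.25 and −0.25, −0.23 and −0.68.

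Myc had 128, 180.4, 149 and 102 CPM in wildtype, 172, 295 and 259.8 CPM in the Kat5 clones and 266, 216 and 70.9 CPM in the Ep400 clones. Kat5/2 and Kat5/3 were above all wildtype libraries and Ep400/3 was below them, as for most members, but Ep400/1 and Ep400/2 were above them as well. Its log2-fold change was 0.76 ± 0.24 in Kat5 clones, adjusted p 0.123, and 0.40 ± 0.40 in Ep400 clones, adjusted p 0.520. Mxd4, whose product competes with MYC for MAX, had 44.96, 20.95, 59.6 and 46.3 CPM in wildtype, 34.3, 5.14 and 10.05 CPM in the Kat5 clones and 24.6, 56.9 and 110.5 CPM in the Ep400 clones. Its level was lowest in Kat5/2 and highest in Ep400/3, and within the wildtype range in Kat5/1, Ep400/1 and Ep400/2. The mean log2 difference over the network was −0.037, −0.62 and −0.45 in the Kat5 clones and −0.46, −0.25 and −0.29 in the Ep400 clones. Over the 10 genes of the MYC network the medians were −0.29 and 0.00085, and Mycn was the only one past the threshold, lower in Ep400 clones at 0.446, 0.0625 and 0.149 CPM compared with 3.93, 4.59, 2.22 and 2.87 CPM in wildtype, adjusted p 0.00910. The part of these genes in the members' levels was not tested.

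**Figure D5:**
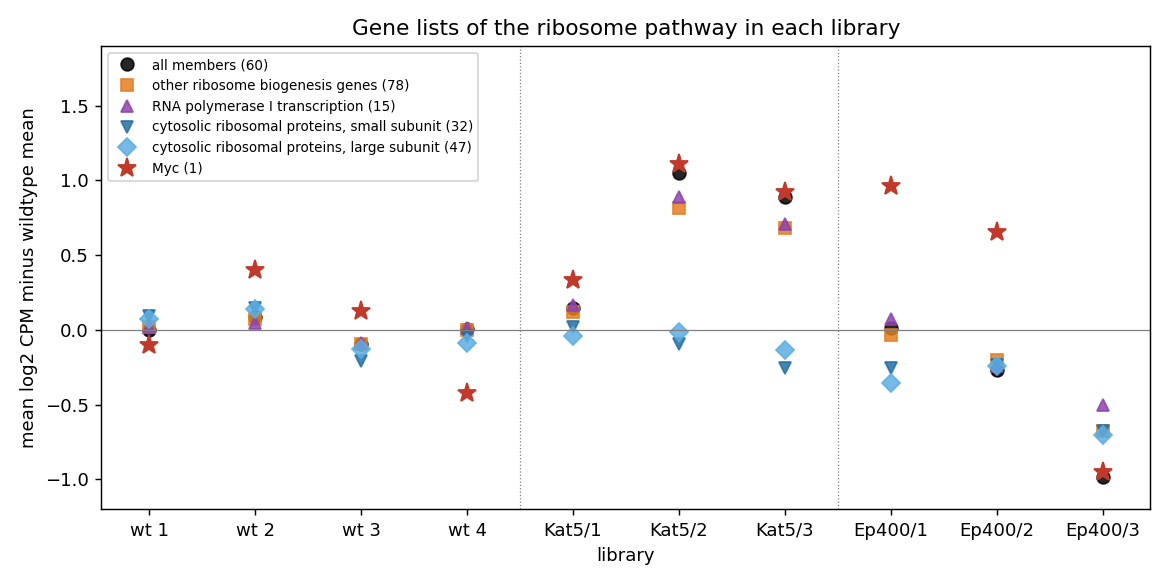
Symbols are the mean log2 CPM minus the wildtype mean over each gene list in each library, with the number of genes in parentheses, and Myc is a single gene. The members, the other biogenesis genes and the RNA polymerase I genes are high in Kat5/2 and Kat5/3 and low in Ep400/3, while the ribosomal proteins lie at or below 0.017 in the Kat5 clones.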

How the data were processed

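RNA was sequenced from 10 libraries (TruSeq Stranded mRNA). The values used are raw read counts per gene as deposited by the authors, who per the labels worked with bcl2fastq 2.20, STAR 2.7.3, mm10, DESeq2 1.36.0 and R 4.2.1. The counting program, its strand setting and the annotation are not given in the sources used here. The deposited normalized tables were not used, and 0 columns of per-sample values of the counts table were left out. Genes were filtered with filterByExpr and scaled by TMM for each comparison, and tested with edgeR 4.0.16 (quasi-likelihood, robust) in R 4.3.3 over all genes, with Benjamini-Hochberg adjustment. The standard error of a log2-fold change was its size divided by the square root of F. Log2 CPM for single libraries used a prior count of 2. A clone was called outside the wildtype range when above or below all 4 wildtype libraries. Values of each library are given for 44 selected members and also for Rrs1 and Rrp1. The 44 passed the test or led a comparison by p or size, or were chosen by name (Nop56, Fbl, Dkc1, Ncl, Npm1, Pes1, Bop1). Also among them were members with opposite directions in the knockouts and all clones outside the wildtype range in at least 1 knockout. Genes of the other lists were named by smallest p, at most 5 a list, beside Kat5, Ep400 and Myc. The members and lists were chosen with earlier results of these data known. The fit was tested on simulated counts, drawn with the same dispersion for every gene and without shared differences between clones. These counts cannot show how the calls behave where clones differ. Alternatives were DESeq2 1.42.0, other scaling, no filter, 1 fit over all libraries, the replicate number as a block, chromosome medians as offsets and each library left out.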

Additional observations from a re-analysis of the deposited data

Results flagged for a closer look

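The difference between the knockouts was tested directly for every member. It passed the threshold for 3 of them, all large subunit factors lower in Ep400 clones, beside 2.83% of all genes lower. The small subunit factors were similarly low, with a median of −1.14 compared with −1.15 for those of the large subunit. The log2-fold change of Ep400 against Kat5 clones was −1.502 for Rpf2, −1.40 for Nop16 and −1.28 for Ddx27, by the quasi-likelihood test of edgeR with Benjamini-Hochberg adjustment. In each case the 3 Ep400 clones were below the 3 Kat5 clones. The wildtype libraries of the members with values given here held no value that stood apart from the others by Dixon's criterion, and groups of 3 clones were not examined in this way.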

How the results depend on the processing

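The median log2-fold change of the members kept its sign in every alternative run, with 0.52 to 0.96 (Kat5), −0.57 to −0.14 (Ep400) and −1.40 to −0.94 (Ep400 against Kat5) over fits without 1 library. The counts of members past the threshold were not stable, and the number of calls over all genes moved with them. The cause was not tested. In Kat5 clones the 2 members became 29 with DESeq2 (3.77% of all genes higher), 1 with library size alone (0.119%), 11 without the filter (0.459%), 0 in 1 fit over all libraries (0.0355%), 0 with chromosome medians as offsets (0.149%) and 0 to 56 without 1 library. Chosen after seeing the data, they became 0 without robust estimation (0.127%), 4 with bias-adjusted quasi-likelihood (0.32%) and 22 at an adjusted p of at most 0.10 (2.4%). In Ep400 clones the 3 members became 6 with DESeq2 (8.48% of all genes lower), 0 in 1 fit (3.66%), 7 at 0.10 (10.1%) and 0 to 12 without 1 library, so that the counts with DESeq2 and at 0.10 were near the share of all genes. Between the knockouts the 3 became 42 with DESeq2 (7.67% of all genes lower), 19 without the filter (2.66%), 48 in 1 fit (12.1%), 7 with chromosome medians (3.44%), 15 with bias adjustment (4.67%), 44 at 0.10 (10.8%) and 0 to 42 without 1 library. Without 1 library, 29 to 57 members lay above the wildtype range in all Kat5 clones, compared with 10.4% to 23.5% of all genes. In Ep400 clones 14 to 36 lay below it, compared with 14.8% to 20.6% of all genes. Without Ep400/3, 4 members lay above it and 14 below, compared with 21.5% and 19.4% of all genes.

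With the replicate number as a replicate block, 0 members passed in each of the 3 comparisons, beside 0% of all genes higher (Kat5), 0.499% lower (Ep400) and 0.294% lower (Ep400 against Kat5). Same-numbered libraries had correlations of −0.0957 to 0.223 in their deviations from the group means. Differently numbered libraries were not compared in this way, so these values cannot decide whether the numbers pair the libraries. The small minus large subunit median was −0.018 (Kat5) with the block, 0.072 (Ep400) with chromosome medians, and −0.035 to 0.11 and −0.033 to 0.081 without 1 library.

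Single members near zero changed sign. In Kat5 clones Nop10 had −0.039 with library size alone, −0.054 with chromosome medians and −0.11 to 0.16 without 1 library. In Ep400 clones, library size alone gave 0.010 for Ltv1 and 0.0097 for Gnl2, and the block gave 0.0037 for Gnl2. Without 1 library the values were −0.23 to 0.18 for Pwp2, −0.47 to 0.26 for Rrp12, −0.28 to 0.13 for Utp15, −0.33 to 0.17 for Mphosph10, −0.16 to 0.051 for Imp4, −0.33 to 0.23 for Ltv1, −0.22 to 0.030 for Nol8, −0.55 to 0.024 for Nol9, −0.49 to 0.028 for Ddx31, −0.11 to 0.096 for Gnl2 and −0.51 to 0.19 for Gnl3, each above zero without Ep400/3. Between the knockouts Noc3l had −0.29 to 0.0055. Every member had at least 399 counts in every library (Ddx31 in Ep400/3).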
